A study of Mus musculus with 15 samples.

Results

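The 9 genes described here encode regulators of breakdown of the extracellular matrix: the tissue inhibitors of metalloproteinases Timp1, Timp2 and Timp3, the secreted proteases Adamts1, Adamts4 and Adamts5, the membrane protease Adam12, and the plasminogen activators Plau and Plat. They were chosen by name and function, with earlier results of these data known. Each was represented by the probe set that named only that gene, of which there was 1 for every member, so 9 of the 19938 genes measured are described. RNA was measured on 15 arrays, 3 in each of 5 groups of fibroblasts grown from mouse heart as colony-forming units (cCFU-F), stromal cells that can found a colony.

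Each group had 3 arrays: untreated large colonies at passage 15, untreated large colonies at passage 5, small colonies given PDGF-AB at 50 ng/ml at passage 15, small colonies given PDGF-AB at passage 5, and untreated small colonies at passage 5. PDGF-AB is a platelet-derived growth factor that binds the receptors PDGFRα and PDGFRβ. All cells came from C57BL/6 mice labelled as 12-week-old males and were isolated by carrying SCA1 and PDGFRα and lacking CD31. The labels do not say how many animals or colonies stand behind a group, so p-values measure the spread between arrays, which may be technical. Differences between groups, those with PDGF-AB included, cannot be told apart from differences between cultures. Late small colonies were all treated, which means that size and PDGF-AB cannot be told apart at passage 15. An inhibitor named in the treatment protocol was assigned to no sample.

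TIMPs are secreted proteins that block matrix metalloproteinases (MMPs), and TIMP3, which stays bound to the matrix, also blocks several ADAM and ADAMTS proteases. ADAMTS1, ADAMTS4 and ADAMTS5 cut large hyaluronan-binding proteoglycans such as versican and aggrecan. Urokinase (Plau) and tissue plasminogen activator (Plat) turn plasminogen into plasmin, a protease that degrades fibrin and activates some MMPs. In heart stroma this balance of proteases and inhibitors is known for setting how fast matrix is turned over.

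Values are log2 intensities of probe sets, as deposited. A level of 1 probe set cannot be set against that of another, so levels are compared between groups within a gene. Errors are the SD over 3 arrays for levels and the standard error (SE) of a limma fit over all 15 arrays for differences. Adjusted p-values (Benjamini-Hochberg over 19938 genes, threshold 0.05) are from that fit. Array medians lay between 5.59 and 5.72 and lower quartiles between 4.06 and 4.23. Pearson's r across probe sets, which are not independent replicates, was 0.997 to 0.998 between arrays of a group and 0.967 to 0.992 between groups. The group mean of Pdgfra, the receptor used for isolation, was 8.84 in large colonies at passage 15 and 6.28 to 6.66 in the other groups. Those of Pecam1, which encodes CD31, ran from 4.29 to 4.59, and Ly6a, which encodes SCA1, was not analysed here. All 8 stromal markers lay above the highest array median in at least 1 group, against 0 of 6 endothelial, 4 of 6 leukocyte, 1 of 5 cardiomyocyte, 4 of 5 pericyte and smooth muscle, 0 of 1 measured Schwann cell, and 3 of 3 epicardial markers. Such counts set different probe sets against 1 cut-off, with some markers close to it on either side, and are only a rough guide. Picked after their values were seen, Tnnt2 (group means 7.32 to 10.38) and Lyz2 (5.35 to 9.14) varied between groups. Of the 8 stromal markers, 3 were higher and 4 lower in large than in small untreated colonies at passage 5 (median -0.85). Large against small, the levels were 10.33 and 5.11 for Thy1, 10.21 and 12.16 for Col1a1, 7.42 and 9.97 for Col3a1, and 4.70 and 8.38 for Tcf21. The part of other cell types in the results was not tested. Xist lay between 8.93 and 10.88 over the 15 arrays, and 3 Y-linked genes between 2.24 and 3.40, below every lower quartile. This goes against the male label, and the sex of the cells was not settled here. Timp1 is X-linked.

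Promoters are shown for the 4 members with a matched window, which are the 3 TIMPs and Adamts1. Each window is the 250 bases before the RefSeq gene start (GRCm38.p6), 5′ to 3′ on the gene's strand. No window was matched for Adamts4, Adamts5, Adam12, Plau or Plat. Capitals mark 2 kinds of letters searched on both strands, the GC box GGGCGG and the TATA box TATAAA, which do not overlap each other. The AP-1 site TGANTCA, also searched, was in 0 of the 4 windows.
Timp1, chrX:20869916-20870165, plus strand: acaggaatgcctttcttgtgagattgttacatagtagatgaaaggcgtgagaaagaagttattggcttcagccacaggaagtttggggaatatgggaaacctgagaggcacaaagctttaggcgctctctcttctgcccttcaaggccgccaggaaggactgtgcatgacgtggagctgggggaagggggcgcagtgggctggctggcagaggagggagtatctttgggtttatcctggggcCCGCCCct
Timp2, chr11:118355412-118355661, minus strand: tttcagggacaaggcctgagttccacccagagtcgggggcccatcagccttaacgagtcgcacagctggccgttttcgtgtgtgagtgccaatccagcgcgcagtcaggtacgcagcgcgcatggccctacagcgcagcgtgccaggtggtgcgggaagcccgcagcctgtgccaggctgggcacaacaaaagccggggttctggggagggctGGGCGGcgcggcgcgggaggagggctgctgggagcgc
Timp3, chr10:86300162-86300411, plus strand: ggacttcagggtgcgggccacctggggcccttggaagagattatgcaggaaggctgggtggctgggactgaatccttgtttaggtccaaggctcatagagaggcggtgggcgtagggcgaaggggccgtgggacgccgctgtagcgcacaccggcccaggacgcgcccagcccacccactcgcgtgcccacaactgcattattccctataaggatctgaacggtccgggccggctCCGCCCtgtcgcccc
Adamts1, chr16:85803114-85803363, minus strand: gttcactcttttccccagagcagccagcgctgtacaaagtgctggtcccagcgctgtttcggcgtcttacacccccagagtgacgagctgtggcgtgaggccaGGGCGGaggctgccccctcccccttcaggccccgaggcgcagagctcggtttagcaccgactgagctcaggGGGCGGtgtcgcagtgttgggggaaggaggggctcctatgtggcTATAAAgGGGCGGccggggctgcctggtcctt
The GC box was found once in each TIMP window and 3 times in that of Adamts1, and the TATA box once, in Adamts1. Of 27025 windows of the same length, 1 per gene, 32.9% held the GC box, 13.0% the TATA box and 6.9% the AP-1 site. These matches describe letters only. In the RefSeq gene table Adamts1 and Adamts5 lie on the same chromosome with 0 protein-coding genes and 1 other gene between them.

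In untreated large colonies, passage 15 against passage 5, the comparison asked what changed with time in culture. Both plasminogen activators, Adam12 and Timp1 rose, while Adamts1, Adamts5, Timp2 and Timp3 fell. Adam12 had the largest rise of the members, 3.96-fold, and Adamts1 the largest fall, 3.25-fold. The test called 8 of the 9, where 36.1% of all genes were called (17.4% higher and 18.7% lower), and the arrays of the groups did not overlap for 9 of 9, as for 44.5% of all genes. A change of at least 2-fold was called in 3 members, against 3.77% of all genes. Fewer cells of a type and less RNA per cell cannot be told apart in such bulk cultures.

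Treated small colonies were also compared between passage 15 and passage 5, with PDGF-AB given at both. Without untreated small colonies at passage 15, time in culture and growth under PDGF-AB cannot be told apart here. Adamts4 fell 2.52-fold and Plat 1.78-fold, Timp2 and Timp3 fell by small amounts, and Adam12 rose 1.35-fold. Timp1, Adamts1, Adamts5 and Plau did not pass. Only Adamts4 changed at least 2-fold, against 5.26% of all genes. The test called 5 of 9, 1 higher and 4 lower, where 46.0% of all genes were called (24.6% higher and 21.4% lower). The arrays did not overlap for 6 of 9, as for 54.9% of all genes.

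PDGF-AB was set against no treatment in small colonies at passage 5. Adam12, all 3 ADAMTS members, Plau and Timp1 rose and Plat fell, each by less than 2-fold (1.39% of all genes were called with at least 2-fold). The largest was Adam12, 1.65-fold higher. The test called 7 of 9, 6 higher and 1 lower, where 28.9% of all genes were called (10.7% higher and 18.2% lower). The arrays did not overlap for 7 of 9, as for 43.0% of all genes.

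Large colonies were set against small ones, both untreated at passage 5, to see how the colony types differ. Adamts5 was 1.94-fold and Adamts1 1.33-fold higher in large colonies, and Adam12 and Plau were 2.43-fold and 2.42-fold lower. Plat was 1.37-fold lower, and no TIMP passed. A difference of at least 2-fold was called in 2 members, against 3.93% of all genes. The test called 5 of 9, where 36.2% of all genes were called (18.2% higher and 18.0% lower). The arrays did not overlap for 9 of 9, as for 44.9% of all genes.

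**Figure D1:**
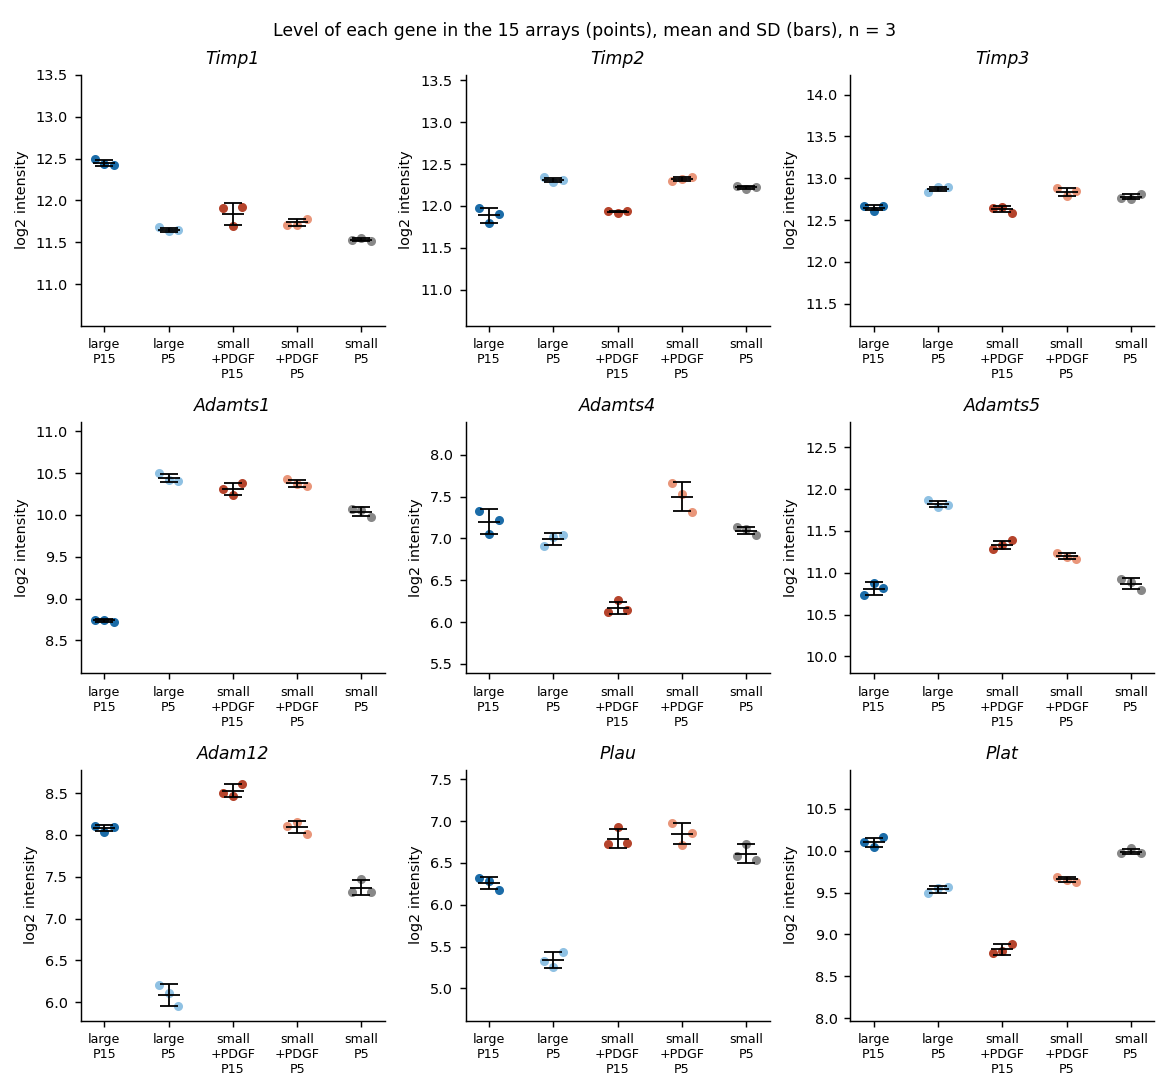
Log2 intensity of the 9 genes (panels, each spanning the same height on the y axis) in the 15 arrays. Points are arrays, bars the mean and SD of 3 arrays, and groups run from large colonies at passage 15 on the left to untreated small colonies at passage 5 on the right. Adamts1 at passage 15 in large colonies (8.74) and Adam12 at passage 5 in large colonies (6.09) lie far below their other groups, while the Timp3 groups stay within 0.24 of each other.

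**Figure D2:**
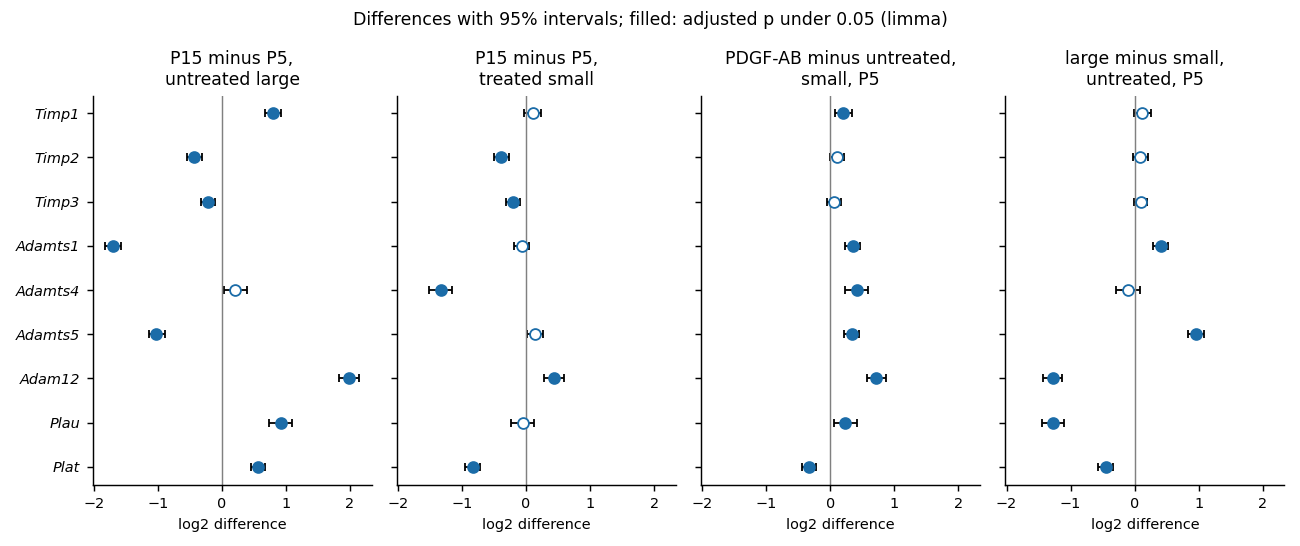
Log2 differences of the 9 genes in the 4 comparisons of a pair of groups, with 95% intervals. Filled points passed the adjusted threshold and open points did not, and the Adam12 point lies right of 0 in every panel except large minus small colonies (-1.28).

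The passage comparisons share no arrays with each other. Passage in large colonies shares the untreated large passage 5 arrays with the comparison of colony size, where they stand on opposite sides. Passage in treated small colonies and the PDGF-AB comparison likewise share the treated passage 5 arrays, so a high or low level there enters both with opposite signs. Mki67, a marker of dividing cells, was 6.83-fold higher at passage 15 in large colonies and 10.3-fold higher at passage 15 in treated small colonies, 2.16-fold lower with PDGF-AB, and 2.46-fold lower in large colonies. Mki67 means in early large (5.41) and early treated small colonies (5.60) lay below or within the range of array medians (5.59 to 5.72). Each of its folds rests on such a group, so their sizes depend on background. The part of cell division in the members' changes was not tested.

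Timp1, an inhibitor inducible by growth signals and inflammation, was measured at 12.49, 12.44 and 12.42 in large colonies at passage 15, against 11.68, 11.63 and 11.65 at passage 5. All 3 late arrays lay above every other array of the series. The difference was 0.80 ± 0.062 (SE), 1.74-fold, with adjusted p = 1.97e-08 by limma. Treated small colonies had 11.91, 11.69 and 11.92 at passage 15, against 11.71, 11.71 and 11.78 at passage 5. There the groups overlapped, the second late array being the lowest of all 6, and the difference was 0.10 ± 0.062 (adjusted p = 0.183, 95% interval -0.03 to 0.23). Without that array it was 0.18 (adjusted p = 0.0153 by limma), and with cyclic loess between arrays 0.19 (adjusted p = 0.0148 by limma). Untreated small colonies had 11.53, 11.55 and 11.52 at passage 5, so all treated arrays of that passage lay above them. Timp1 was 0.20 ± 0.062 higher with PDGF-AB (adjusted p = 0.0207 by limma). That call was lost without treated replicate 3 (adjusted p = 0.0806 by limma) or untreated replicate 1 (adjusted p = 0.0559 by limma). Large colonies exceeded small ones by 0.12 (95% interval -0.01 to 0.25, adjusted p = 0.157).

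Timp2, which inhibits MMPs and also takes part in the activation of pro-MMP2 by MMP14, was lower at passage 15 in both colony types. Large colonies had 11.97, 11.79 and 11.90 at passage 15, against 12.35, 12.29 and 12.31 at passage 5. In treated small colonies it was 11.94, 11.92 and 11.94 at passage 15, against 12.30, 12.32 and 12.34 at passage 5. In neither colony type did late and early arrays overlap. Timp2 fell by 0.43 in large colonies (SE 0.054, adjusted p = 6.35e-06 by limma) and fell by 0.39 in treated small ones (SE 0.054, adjusted p = 1.4e-05 by limma). Untreated small colonies had 12.24, 12.20 and 12.23. The differences with PDGF-AB (0.10, 95% interval -0.01 to 0.21) and between colony sizes (0.09, 95% interval -0.02 to 0.21) did not pass.

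Timp3, the matrix-bound inhibitor, varied least of the members. In large colonies it stood at 12.67, 12.61 and 12.67 at passage 15, against 12.84, 12.89 and 12.89 at passage 5. With PDGF-AB small colonies stood at 12.64, 12.66 and 12.59 at passage 15, against 12.88, 12.79 and 12.85 at passage 5. Late arrays lay below early ones in both colony types. The fall was 1.17-fold in large colonies (adjusted p = 0.00228 by limma) and 1.15-fold in treated small ones (adjusted p = 0.00305 by limma), the second lost with cyclic loess (-0.10, adjusted p = 0.106 by limma). Untreated small colonies had 12.77, 12.75 and 12.81, with differences of 0.06 for PDGF-AB (adjusted p = 0.428) and 0.10 for colony size (adjusted p = 0.166), neither of which passed. Group means of Timp3 spanned 0.24, a wider span than in 24.1% of all genes, against a median span of 0.40.

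Adamts1, a protease of versican and aggrecan that also sequesters the growth factor VEGF, had its low level in 1 group. Large colonies had 8.75, 8.75 and 8.72 at passage 15, against 10.50, 10.42 and 10.41 at passage 5. The treated small colonies stood at 10.31, 10.24 and 10.38 at passage 15, against 10.43, 10.37 and 10.35 at passage 5, and untreated small ones had 10.07, 10.06 and 9.98. The late large arrays lay more than 1 below all the others. In large colonies Adamts1 fell by 1.70 (SE 0.055, adjusted p = 3.52e-13 by limma), whereas in treated small colonies the difference was -0.07 (95% interval -0.19 to 0.04, adjusted p = 0.308). Adamts1 was 0.35 ± 0.055 higher with PDGF-AB (adjusted p = 0.00016 by limma), and large colonies exceeded small ones by 0.41 ± 0.055 (adjusted p = 1.58e-05 by limma).

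Adamts5, the main aggrecan-cutting enzyme of mouse cartilage, was highest in large colonies at passage 5. It stood at 10.73, 10.88 and 10.82 in large colonies at passage 15, against 11.87, 11.79 and 11.81 at passage 5, a fall of 2.02-fold (adjusted p = 5.25e-10 by limma). With PDGF-AB small colonies had 11.28, 11.33 and 11.39 at passage 15, against 11.24, 11.19 and 11.16 at passage 5. Those groups did not overlap, and the difference of 0.14 ± 0.059 missed the threshold (adjusted p = 0.0705). It passed with cyclic loess (0.21, adjusted p = 0.00476 by limma), when the dim genes were dropped (adjusted p = 0.0331 by limma) and with trend and robust variance (adjusted p = 0.0138 by limma). Untreated small colonies had 10.93, 10.89 and 10.79. Adamts5 was 0.33 ± 0.059 higher with PDGF-AB (adjusted p = 0.00045 by limma), and large colonies exceeded small ones by 0.96 ± 0.059 (adjusted p = 1.05e-09 by limma). Like its neighbour Adamts1 it fell with passage in large colonies and was higher with PDGF-AB and in large colonies.

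Adamts4, an inducible aggrecan- and versican-cutting enzyme, moved otherwise. Treated small colonies had 6.12, 6.26 and 6.14 at passage 15, against 7.66, 7.53 and 7.32 at passage 5, and the late arrays were the lowest of the series. The fall was 1.33 on the log2 scale, or 2.52-fold (SE 0.086, adjusted p = 1.41e-09 by limma). Large colonies had 7.33, 7.05 and 7.22 at passage 15, against 6.91, 7.02 and 7.04 at passage 5. That difference of 0.21 ± 0.086 did not pass (adjusted p = 0.0635), but passed without large passage 15 replicate 2 (0.29, adjusted p = 0.0177 by limma) and when dim genes, below the median level, were dropped (adjusted p = 0.0314 by limma). With PDGF-AB Adamts4 was 0.41 ± 0.086 above the 7.13, 7.11 and 7.04 of untreated small colonies (adjusted p = 0.0016 by limma). The difference between colony sizes was -0.10 (95% interval -0.29 to 0.08).

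Adam12, a membrane-anchored metalloprotease linked to activated stroma and to cleavage of IGF-binding proteins, varied most of the members. Large colonies had 8.10, 8.04 and 8.09 at passage 15, against 6.21, 6.11 and 5.95 at passage 5. Treated small colonies had 8.50, 8.46 and 8.61 at passage 15, against 8.10, 8.15 and 8.01 at passage 5, and untreated small colonies had 7.32, 7.47 and 7.32. In none of the 4 comparisons of a pair of groups did these arrays overlap. The rise with passage was 1.99 ± 0.072 in large colonies (adjusted p = 1.35e-12) and 0.44 ± 0.072 in treated small ones (adjusted p = 8.69e-05). Adam12 was 0.72 ± 0.072 higher with PDGF-AB (adjusted p = 1.29e-06 by limma), and 1.28 lower in large than in small colonies (log2 difference -1.28, adjusted p = 3.17e-10 by limma). Its group means spanned 2.43, wider than in 97.5% of all genes. The lowest group of Adam12, early large colonies, lay not far above the array medians (5.59 to 5.72), so the sizes of differences from it may depend on background.

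Plau, or urokinase, had its lowest level in large colonies at passage 5. Large colonies had 6.32, 6.28 and 6.18 at passage 15, against 5.33, 5.25 and 5.44 at passage 5. The early arrays lay below every array median and did not overlap the late ones. Folds at such levels depend on background. The rise with passage in large colonies was 0.92 ± 0.083, or 1.89-fold (adjusted p = 1.4e-07 by limma). Treated small colonies had 6.72, 6.93 and 6.74 at passage 15, against 6.98, 6.71 and 6.86 at passage 5, and these overlapped, with a difference of -0.05 (95% interval -0.23 to 0.12, adjusted p = 0.635). Untreated small colonies had 6.58, 6.73 and 6.53, overlapping with the treated ones of that passage. Plau was 0.23 ± 0.083 higher with PDGF-AB (adjusted p = 0.0438 by limma), the weakest of the calls. That call was lost with the compared arrays alone (adjusted p = 0.073 by limma) and with the replicate block (adjusted p = 0.0584 by limma). It was also lost without treated replicate 1 or 3 or untreated replicate 1 or 3 (highest adjusted p = 0.175 by limma). Large colonies at passage 5 were 1.27 below small ones (log2 difference -1.27, adjusted p = 2.11e-09).

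Plat, or tissue plasminogen activator, moved in opposite directions with passage. Large colonies had 10.10, 10.05 and 10.16 at passage 15, against 9.50, 9.55 and 9.57 at passage 5. In small colonies with PDGF-AB it was 8.78, 8.80 and 8.89 at passage 15, against 9.69, 9.65 and 9.63 at passage 5. Every late large array lay above the early ones and every late treated small array below them. The changes were 0.56 ± 0.054 in large colonies (adjusted p = 2.92e-07) and -0.83 ± 0.054 in treated small ones (adjusted p = 1.57e-09). Untreated small colonies had 9.97, 10.03 and 9.97, so Plat fell by 0.34 with PDGF-AB (SE 0.054, adjusted p = 0.000182 by limma), the only member to fall in that comparison. Large colonies at passage 5 were 1.37-fold lower than small ones (adjusted p = 3.82e-06 by limma).

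The passage change itself was compared between the colony types, as the change in treated small colonies minus that in untreated large colonies. It differed for 7 of 9 members, where 34.4% of all genes were called (18.6% higher and 15.9% lower). A difference of at least 2-fold was called for 5 members, against 4.23% of all genes. Adamts1 (1.63 ± 0.078, adjusted p = 1.06e-10) and Adamts5 (1.15 ± 0.083, adjusted p = 1.74e-08) had the higher change in treated small colonies. Timp1, Adamts4, Adam12, Plau and Plat had the lower one, with Plat at -1.40 ± 0.077 (adjusted p = 5.54e-10) and Adam12 at -1.55 ± 0.10 (adjusted p = 5.32e-09). Timp2 (0.04, 95% interval -0.12 to 0.20) and Timp3 (0.01, 95% interval -0.14 to 0.17) did not pass, and both had fallen in each colony type. Colony size and PDGF-AB differ together here and cannot be told apart.

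**Figure D3:**
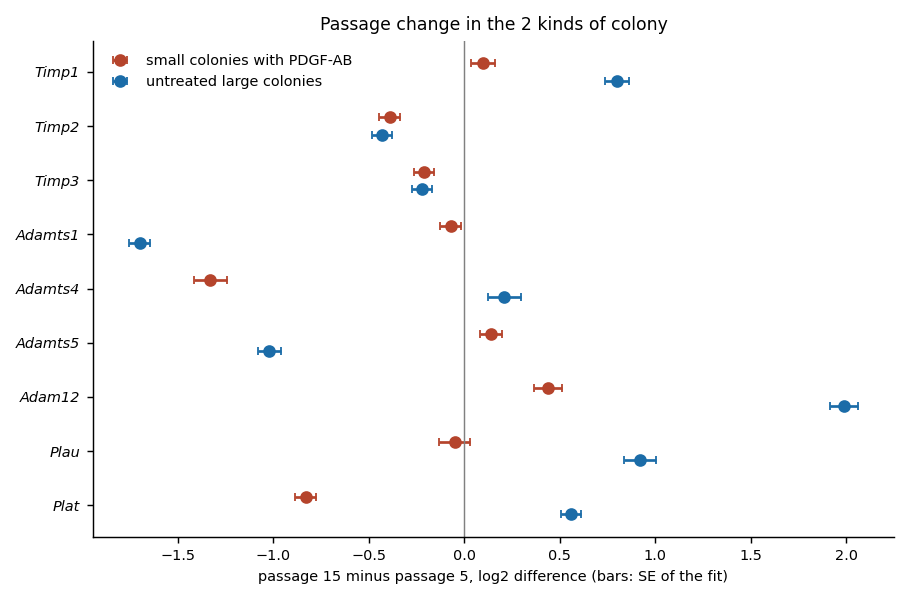
Passage 15 minus passage 5 (log2 difference, x axis) for the 9 genes in small colonies with PDGF-AB (upper point of each pair) and untreated large colonies (lower point), with bars for the SE of the fit. The points lie close together for Timp2 (-0.39 and -0.43) and Timp3 (-0.21 and -0.22) and on opposite sides of 0 for Plat (-0.83 and 0.56).

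Ordered by group mean, the members fell into different patterns. Of all genes, 53.4% were called at passage 15 and 35.7% at passage 5 when treated small colonies were set against untreated large ones. Late treated small colonies gave 54.7% against untreated small and 49.9% against early large ones. Late large colonies gave 38.5% against untreated small and 45.3% against early treated small ones. Timp1 was highest in late large colonies, which exceeded the next group, late treated small colonies, by 0.61 (adjusted p = 4.3e-07 by limma), and no neighbours among the other groups differed beyond the threshold, though with cyclic loess the step from early treated small to early large colonies also passed (adjusted p = 0.0492 by limma). Timp2 split by passage: the 3 early groups lay between 12.22 and 12.32, the late ones at 11.93 and 11.89, and only the step between untreated small and late treated small colonies passed (0.29, adjusted p = 0.000296 by limma), joined with cyclic loess by that between the late groups (adjusted p = 0.0365 by limma). In Timp3 no neighbouring groups differed beyond the threshold, but the step between late large and untreated small colonies (-0.13, adjusted p = 0.0636 by limma) passed under 4 alternatives. Its adjusted p by limma was 0.0126 with arrays centred on their medians, 0.0286 with cyclic loess, 0.0222 when dim genes were dropped, and 0.0019 with trend and robust variance. In Adamts1 the first 3 groups were early large, early treated small and late treated small colonies, whose neighbours did not pass. Then came untreated small colonies (a step of 0.27) and late large colonies (a step of 1.29), both past the threshold.

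Adamts4 was highest in early treated small colonies, 0.30 above late large ones (adjusted p = 0.00791 by limma), though these arrays overlapped and the call was lost without large passage 15 replicate 2 (adjusted p = 0.052 by limma) or treated passage 5 replicate 1 (adjusted p = 0.0506 by limma). Its lowest group, late treated small colonies, lay 0.81 below early large ones, and the neighbours between did not pass. Adamts5 was highest in early large colonies, and there untreated small and late large colonies, at the low end, were 0.06 apart (adjusted p = 0.486 by limma). For Adam12, early treated small and late large colonies had nearly the same mean, 8.09 and 8.08 (adjusted p = 0.913 by limma), and every other step passed. The 3 small groups led for Plau, followed by late and early large colonies. No step between neighbouring small groups passed (the lower one passed without untreated replicate 2, adjusted p = 0.0368 by limma). The highest of them, early treated, and the lowest, untreated, did differ (0.23, adjusted p = 0.0438 by limma). For Plat, late large and untreated small colonies led, 0.11 apart (adjusted p = 0.125 by limma), and late treated small colonies stood last, 0.72 below early large ones.

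Other genes of the same protease systems were taken from fixed lists, of which 67 genes were measured. With passage in large colonies 26 of the 67 were called, 14 higher and 12 lower, where 36.1% of all genes were called (17.4% higher and 18.7% lower). The median difference was -0.04 against -0.042 over all genes. In treated small colonies 29 were called with passage, 16 higher and 13 lower, against 46.0% of all genes (24.6% and 21.4%). With PDGF-AB 29 were called, 11 higher and 18 lower, against 28.9% of all genes (10.7% and 18.2%). Between colony sizes 33 were called, 16 higher and 17 lower in large colonies, against 36.2% of all genes (18.2% and 18.0%). The passage change differed between colony types for 33, against 34.4% of all genes. These shares also stand behind the counts per list that follow. The medians of the 67 genes were 0.08 for passage in treated small colonies, 0.05 for PDGF-AB and 0.08 for colony size, against 0.051, 0.016 and 0.031 over all genes.

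Of the 16 measured MMPs, the enzymes that TIMPs block, 7 rose and 2 fell with passage in large colonies (median 0.16). Mmp3 (stromelysin) stood at 8.81 ± 0.073 at passage 15, against 5.69 ± 0.081 at passage 5, and Mmp8, a collagenase, stood at 6.67 ± 0.17, against 3.78 ± 0.089, which is below the lower quartile of every array. The gelatinase Mmp2 rose by 1.38 ± 0.056 there, while its activator Mmp14 had a difference of 0.00 (adjusted p = 0.997 by limma). With passage in treated small colonies 3 MMPs rose and 4 fell (median 0.02). Mmp23 fell by 2.05 and Mmp14 fell by 0.78, and Mmp3 stood at 4.31 ± 0.26 at passage 15, against 5.88 ± 0.026 at passage 5, while Mmp2 rose by 0.66. With PDGF-AB 2 rose and 8 fell (median -0.20): the collagenase Mmp13 stood at 4.52 ± 0.057 with PDGF-AB and 8.20 ± 0.14 without, and Mmp2 fell by 0.74. Large colonies had 3 MMPs higher and 8 lower than small ones (median -0.18), Mmp3 (-3.53) and Mmp2 (-1.62) among the lower. The low levels of Mmp3 (4.31), Mmp8 and Mmp13 (4.52) lie close to or below the lower quartiles of the arrays, and that of Mmp3 in early large colonies (5.69) lies near the array medians, so the sizes of these differences depend on background. Reck, a membrane-anchored MMP inhibitor, fell by 0.83 with passage in large colonies and fell by 0.34 in treated small ones, as did Timp2 and Timp3, and it was 0.56 higher in large than in small colonies. Timp4 lay between 4.23 and 4.33 in every group and did not pass in any of these comparisons.

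Of 10 genes of the hyaluronan and proteoglycan matrix, which holds the substrates of ADAMTS1, ADAMTS4 and ADAMTS5, 2 rose and 1 fell with passage in large colonies. Vcan (versican) stood at 10.04 ± 0.086 at passage 15 there, against 6.54 ± 0.22 at passage 5, a rise of 3.50 ± 0.089, and the hyaluronan synthase Has2 rose by 2.31 ± 0.062. In the same arrays Adamts1 and Adamts5 fell. In treated small colonies 4 rose and 1 fell with passage. Vcan rose by 1.84 and Has2 fell by 0.53 there. Both were lower with PDGF-AB, with Vcan at -0.52 and Has2 at -0.39, and these were the 2 of 10 called. Large colonies at passage 5 had less Has2 (-2.36) and Vcan (-2.28) than small ones, with 1 of the 10 higher and 2 lower.

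Of the 15 other ADAMTS genes measured, 3 rose and 2 fell with passage in large colonies, including Adamts14, a procollagen N-proteinase, at 1.09 and Adamts15, another proteoglycan-cutting enzyme, with 6.23 ± 0.13 at passage 15 and 4.94 ± 0.19 at passage 5, the second below every array median, so that its size depends on background. With passage in treated small colonies 4 rose and 2 fell, with Adamts14 at 0.97 and Adamts10 at -1.67. With PDGF-AB 2 rose and 4 fell, with Adamts7 at -0.44 and Adamts9 at -0.50. Between colony sizes 4 were higher and 5 lower in large colonies, with Adamts12 at -1.74 and Adamts14 at -1.10. Adamtsl5, of the 6 measured ADAMTS-like genes, which resemble ADAMTS proteins but lack the protease part, fell by 1.09 with passage in large colonies and fell by 1.18 in treated small ones.

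The 9 other ADAM genes included Adam23, a family member without protease activity, which stood at 5.26 ± 0.23 in treated small colonies at passage 15, below every array median, against 8.85 ± 0.044 at passage 5. It rose with PDGF-AB at passage 5, where untreated colonies had 7.40 ± 0.029. Those comparisons share the treated passage 5 arrays. Adam22, also without protease activity, stood at 7.57 ± 0.16 in large and 4.29 ± 0.043 in small untreated colonies at passage 5, the second near the lower quartiles. The sizes of both differences depend on background. Adam17, the shedding enzyme of TNF, was 1.99-fold lower in large than in small colonies and fell by 0.41 with PDGF-AB. Adam19 fell by 0.50 with passage in large colonies and fell by 0.47 in treated small ones.

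Of 9 plasminogen system partners, 1 rose with passage in large colonies, Serpinb2 (0.30), an inhibitor of urokinase, at levels of 4.56 and 4.26 close to the lower quartiles. Plaur, the urokinase receptor, stood at 8.90 ± 0.15 at passage 15, against 8.92 ± 0.14 at passage 5 there, and did not pass (adjusted p = 0.853 by limma). It rose by 0.52 with PDGF-AB (adjusted p = 0.000372 by limma), in the comparison where Plau rose and Plat fell. It was the 1 partner to rise there, and 3 fell: Serpinb2 stood at 4.47 ± 0.13 with PDGF-AB and 5.11 ± 0.081 without, again at low levels (adjusted p = 1.34e-05 by limma), and the plasminogen-binding pair S100a10 and Anxa2 fell by 0.20 and fell by 0.24. In treated small colonies 4 partners rose and 1 fell with passage. S100a10 (0.33) and Anxa2 (0.37) rose there and Plaur fell by 0.28. The treated passage 5 arrays, where the pair was low, are shared with the PDGF-AB comparison. S100a10 stood at 11.68 in late treated, 11.36 in early treated and 11.55 in untreated small colonies, and Anxa2 at 11.40, 11.03 and 11.28.

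**Figure D4:**
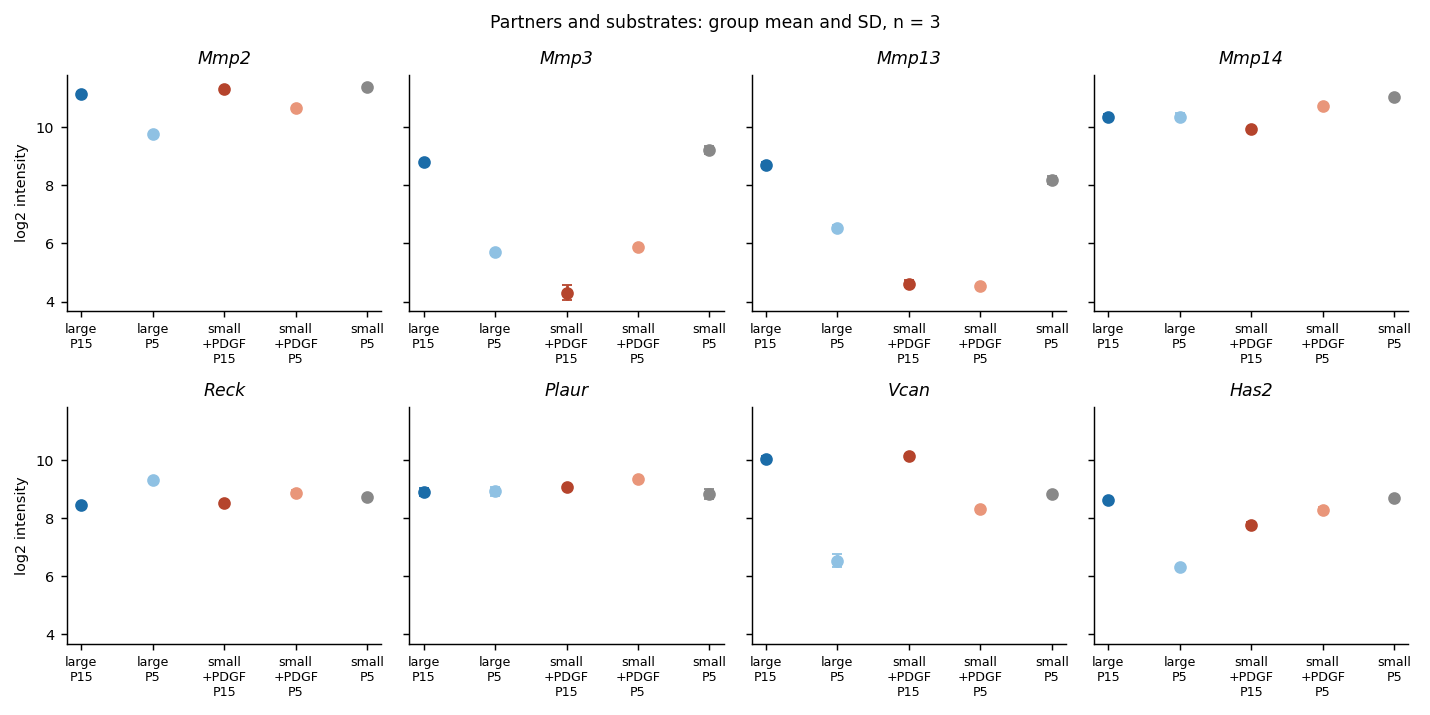
Log2 intensity (y axis) of 8 partners and substrates in the 5 groups, as mean and SD of 3 arrays. Mmp3 and Mmp13 are high in late large and untreated small colonies (8.81 and 9.23, 8.71 and 8.20), and Vcan is high in both late groups (10.04 and 10.13).

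For each member the 2 genes with the most similar pattern were taken by Pearson's r over the 15 arrays, among 2545 genes whose group means span at least 1 on the log2 scale (2544 where the member itself is among them). The points fall into 5 groups of 3 arrays, so r describes mainly the 5 group means. For Timp1 these were Daam2 (0.973) and Cstad (0.970), for Timp2 Klhl30 (0.983) and Prnp (0.982), and for Timp3 Adamtsl5 (0.944) and Tmf1 (0.934). For Adamts1 they were Wasf3 (0.980) and Vldlr (0.971), for Adamts4 Pkig (0.972) and Swap70 (0.967), and for Adamts5 Serpinb9b (0.961) and Zdhhc2 (0.955). For Adam12 they were Eps8 (0.976) and Fhl3 (0.952), for Plau Spcs3 (0.981) and Taf1d (0.980), and for Plat Fah (0.982) and Rgl1 (0.982). Timp1, Timp2 and Timp3, with spans of 0.92, 0.44 and 0.24, were not among the candidates and could not be found this way. Of the other members, none was among the 2 most similar genes of another member.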

How the data were processed

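Total RNA was labelled for Affymetrix whole-transcript arrays, per the labels' protocols. The authors deposited log2 intensities of 28853 probe sets in 15 arrays, and RMA and limma appear in the submitters' processing notes without a version or a stated use. Background settings are not given in the sources used here, and raw scans were not used here.

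Probe sets were named from GEO's platform annotation: 21789 named 1 gene, 1621 several and 5443 were not listed. Gene identifiers of 21698 matched the GRCm38.p6 RefSeq table. Where a gene had several probe sets (999 genes) the brightest on average was kept, which gave 19938 genes. Groups came from the labels. Using R 4.3.3, limma 3.58.1 fitted 1 mean per group to the 15 arrays together (10 residual and 5.80 prior degrees of freedom), 2-sided, with Benjamini-Hochberg adjustment over all genes at 0.05. The fit was tested on simulated data with independent noise in each array, which cannot show whether the real spread between arrays is technical. The precision is limited by 3 arrays per group. Members, lists, comparisons and the rule for named genes were chosen with earlier results of these data known. Named genes were the 9 members, in each comparison up to 2 called genes per list, by smallest adjusted p, the fixed partners Plaur, Reck, Timp4, Vcan, Mmp14 and Mmp2, called or not, and the 2 genes most similar to each member, leaving out predicted genes, microRNAs and unnamed transcripts, with Pdgfra, Pecam1 and Mki67 as markers. Tnnt2, Lyz2, Thy1, Col1a1, Col3a1, Tcf21, Xist, the Y-linked genes and, for PDGF-AB, S100a10 and Anxa2 were added after their values were seen. Replicate numbers did not meet the pairing rule (same-number correlations for passage in large colonies were 0.208, 0.0984 and 0.202). The alternatives are named in the closing section.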

Additional observations from a re-analysis of the deposited data

Results flagged for a closer look

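The change from passage 5 to passage 15 differed between treated small and untreated large colonies for 7 of the 9 genes, by a test of the difference itself (limma, adjusted over all genes). As treated small minus untreated large, the differences on the log2 scale were -0.70 for Timp1, 1.63 for Adamts1, -1.55 for Adamts4, 1.15 for Adamts5, -1.55 for Adam12, -0.97 for Plau and -1.40 for Plat, with adjusted p-values from 1.06e-10 (Adamts1) to 1.05e-05 (Timp1). Plat moved in opposite directions in the 2 kinds of colony. Colony size and PDGF-AB differ together in this difference. Groups of 3 arrays were too small to test for single outlying arrays, and results with each array left out are given below.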

How the results depend on the processing

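The alternatives were arrays centred on their medians, cyclic loess, genes below the median level left out, the mean over probe sets, a fit to only the arrays compared, trend and robust variance, a replicate block, each array left out in turn, and a minimum of 2-fold. Without the 2-fold minimum, 613 of 639 values of the members in the 5 comparisons kept direction and side of the threshold, and 6 reversed. These include the mean over probe sets, which could not change a difference because every member had 1 probe set. The cause of the changes was not tested. With the 2-fold minimum, in the order passage in large colonies, passage in treated small colonies, PDGF-AB, colony size, the members called were 3, 1, 0 and 2 (8, 5, 7 and 5 without it). With the difference of passage changes last, the same minimum left 751, 1049, 278, 783 and 844 of all genes (7196, 9169, 5772, 7216 and 6865 without it) and 12, 6, 4, 12 and 11 of the other protease genes (26, 29, 29, 33 and 33 without it). Trend and robust variance called 8 members for colony size, adding Timp1, Timp2 and Timp3 (adjusted p = 0.0417, 0.0477 and 0.018 by limma), and Timp2 for PDGF-AB (adjusted p = 0.0371 by limma). With cyclic loess Timp3 turned to -0.01 for colony size, and for treated small minus untreated large colonies to 0.06 at passage 15 and 0.03 at passage 5. Adamts1 turned likewise to 0.02 at passage 5 and to 0.01 for late treated small minus early large colonies. Leaving out 1 array gave 8 to 9, 5 to 6, 5 to 7, 5 to 5 and 7 to 7 members called. It turned the sign of Plau for passage in treated small colonies (-0.12 to 0.01), of the difference of passage changes for Timp2 (-0.01 to 0.08) and Timp3 (-0.01 to 0.04), of Timp2 between treated small and large colonies at passage 5 (0 to 0.02), and of Adam12 between late large and early treated small colonies (-0.05 to 0.02), none of which had passed the test. With the replicate block 8, 5, 6, 5 and 7 members were called, and the replicate numbers were not shown to pair the arrays. Precision is limited by 3 arrays per group and, for Plau, by signal near background. The lowest groups of Adam12 (6.09, early large colonies) and Adamts4 (6.17, late treated small colonies) lay not far above the array medians. The sizes of their differences may depend on background too.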
